A study of Mus musculus with 104 samples.

Results

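Mybpc1, Nudt3, Tspyl4, Fbxw11, R3hdm4 and Jpt1 are 6 genes of mouse cerebral cortex whose RNA stood apart in the Tbc1d8 and Gsg1l lines. They were listed because their levels in these 2 of 13 lines of wild type mice differed in the same direction from the other lines, so the line values below are a description and carry no test. They are 6 of 24060 genes in the deposited RefSeq counts, all 6 were among the 15723 genes with enough reads to be tested, and the files list Jpt1 under its older symbol Hn1. The F-test over the 13 lines uses the same line values, so ranks by it are a description too. By that F-test the 6 genes ranked between 4 (Tspyl4) and 13 (Jpt1) of the 15723 genes.

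Every mouse was wild type, C57BL/6 and 6 months old. The lines carry the names of genes (Tbc1d8, Gsg1l and Dach1, which are described here, and Arpp19, Ece2, Hrk, Kdm3b, Morf4l1, Pcdh20, Ppp1ca, Rasgef1a, Rgs9 and Zswim6), and each gave 8 libraries, from 4 females and 4 males. No line here is a mutant, whatever its name, and the labels tag the lines as batches, so line and batch cannot be told apart. In all, 8 libraries were on plate 2 and 96 on plate 1, and a library is called here by its line, its sex and the replicate number of its label.

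The 6 genes do not form a known pathway. Mybpc1 encodes slow-type myosin-binding protein C, a thick filament protein best known from skeletal muscle. Nudt3 encodes a Nudix hydrolase of diphosphoinositol polyphosphates that also removes caps from mRNA, and Tspyl4 belongs to the TSPY-like genes, relatives of the nucleosome assembly proteins. Fbxw11 encodes beta-TrCP2, an F-box protein that selects phosphorylated substrates, beta-catenin, the inhibitor of NF-kappaB and ATF4 among those known in mammalian cells, for ubiquitination by an SCF ligase. R3hdm4 encodes a protein with an R3H domain, a fold that can bind single-stranded nucleic acids, and Jpt1 encodes a homolog of Jupiter, a microtubule-associated protein of Drosophila.

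Promoter windows of the 6 genes, from 250 bases before to 50 bases after the annotated start, were taken from RefSeq on GRCm38.p6. All 6 genes matched, with 7 windows, since Nudt3 has 2. The windows of Tspyl4 (chr10:34297171-34297470, plus strand, 40% GC) and R3hdm4 (chr10:79916881-79917180, minus strand, 69.7% GC) are shown because they are the most abundant gene of each direction per length, and because each holds a searched motif. Capitals mark matches on either strand.
Tspyl4: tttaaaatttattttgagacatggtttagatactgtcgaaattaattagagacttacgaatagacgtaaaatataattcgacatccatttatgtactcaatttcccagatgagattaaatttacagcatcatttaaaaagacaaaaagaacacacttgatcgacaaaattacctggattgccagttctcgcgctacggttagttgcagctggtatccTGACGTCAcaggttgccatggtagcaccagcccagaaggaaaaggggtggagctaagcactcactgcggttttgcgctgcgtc
R3hdm4: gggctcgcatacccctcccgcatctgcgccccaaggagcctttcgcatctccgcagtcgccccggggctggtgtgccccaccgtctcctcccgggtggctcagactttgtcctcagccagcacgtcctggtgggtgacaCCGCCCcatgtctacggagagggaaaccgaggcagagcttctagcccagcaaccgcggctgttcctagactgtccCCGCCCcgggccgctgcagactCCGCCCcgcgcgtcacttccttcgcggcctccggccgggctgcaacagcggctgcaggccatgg
The Tspyl4 window held the cyclic AMP response element TGACGTCA at bases 218 to 225, a motif found in 1.79% of the 32851 RefSeq windows of this length. The R3hdm4 window held the GC box GGGCGG, as its reverse complement, at bases 140 to 145, 215 to 220 and 237 to 242, and 35.7% of all windows held at least 1. A GC box also stood in the Jpt1 window and at 2 places in 1 of the Nudt3 windows, while none of the searched motifs lay in the Mybpc1 or Fbxw11 window. The C/EBP-ATF element TGATGNAA (3.97% of all windows) and the E-box CACGTG (7.15%) matched in none of the 7 windows. No searched motifs overlapped in these windows, and a match here is a description of letters only.

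Library totals over the RefSeq genes ran from 3.39 to 33.5 M reads, and the library with the fewest, Kdm3b female 22, was followed by one with 23.9 M reads. In 3 libraries (Rgs9 female 43, Rasgef1a male 40 and Rasgef1a female 39) the sex-linked transcripts went against the labelled sex, and they were analysed as labelled. Markers of excitatory cortical neurons summed to between 2057 and 2273 CPM (counts scaled by library size) in Tbc1d8, between 2027 and 2287 CPM in Gsg1l, between 2037 and 2213 CPM in Dach1 and between 1896 and 2249 CPM in the other 10 lines (7 of 7 markers found), so markers of the labelled tissue were present in every library. Bulk RNA cannot tell fewer cells of a type from less RNA per cell.

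Per length, Tspyl4 was the most abundant of the 6 genes, with a median level of 195 fragments per kilobase and library size (FPKM) over all libraries. R3hdm4 followed with 135 FPKM and Nudt3 with 128 FPKM, then Fbxw11 with 40.01 FPKM and Jpt1 with 37.1 FPKM. Mybpc1 was by far the lowest, with 2.87 FPKM, and its values rest on 176 to 449 reads per library (37 in Kdm3b female 22), against at least 1176 for any other of the 6 genes outside that library.

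Mybpc1, Nudt3, Tspyl4 and Fbxw11 were lower, and R3hdm4 and Jpt1 higher, in Tbc1d8 and Gsg1l than in the other lines. In none of the 6 genes did any of the 8 Tbc1d8 libraries fall within the range of the 80 libraries of the 10 lines other than Tbc1d8, Gsg1l and Dach1. In Gsg1l the same held for 7 libraries, and the library that fell within that range was female 14 for every one of the 6 genes. The 6 genes were chosen on their levels in these lines, and the share of all genes without such overlap was not computed. Nothing is therefore read from this lack of overlap. In Dach1 the libraries parted: female 5, female 7 and male 7 lay toward Tbc1d8 and Gsg1l, and the other 5 lay among the remaining lines. The plot of every library by line shows these 3 sets of libraries.

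**Figure D1:**
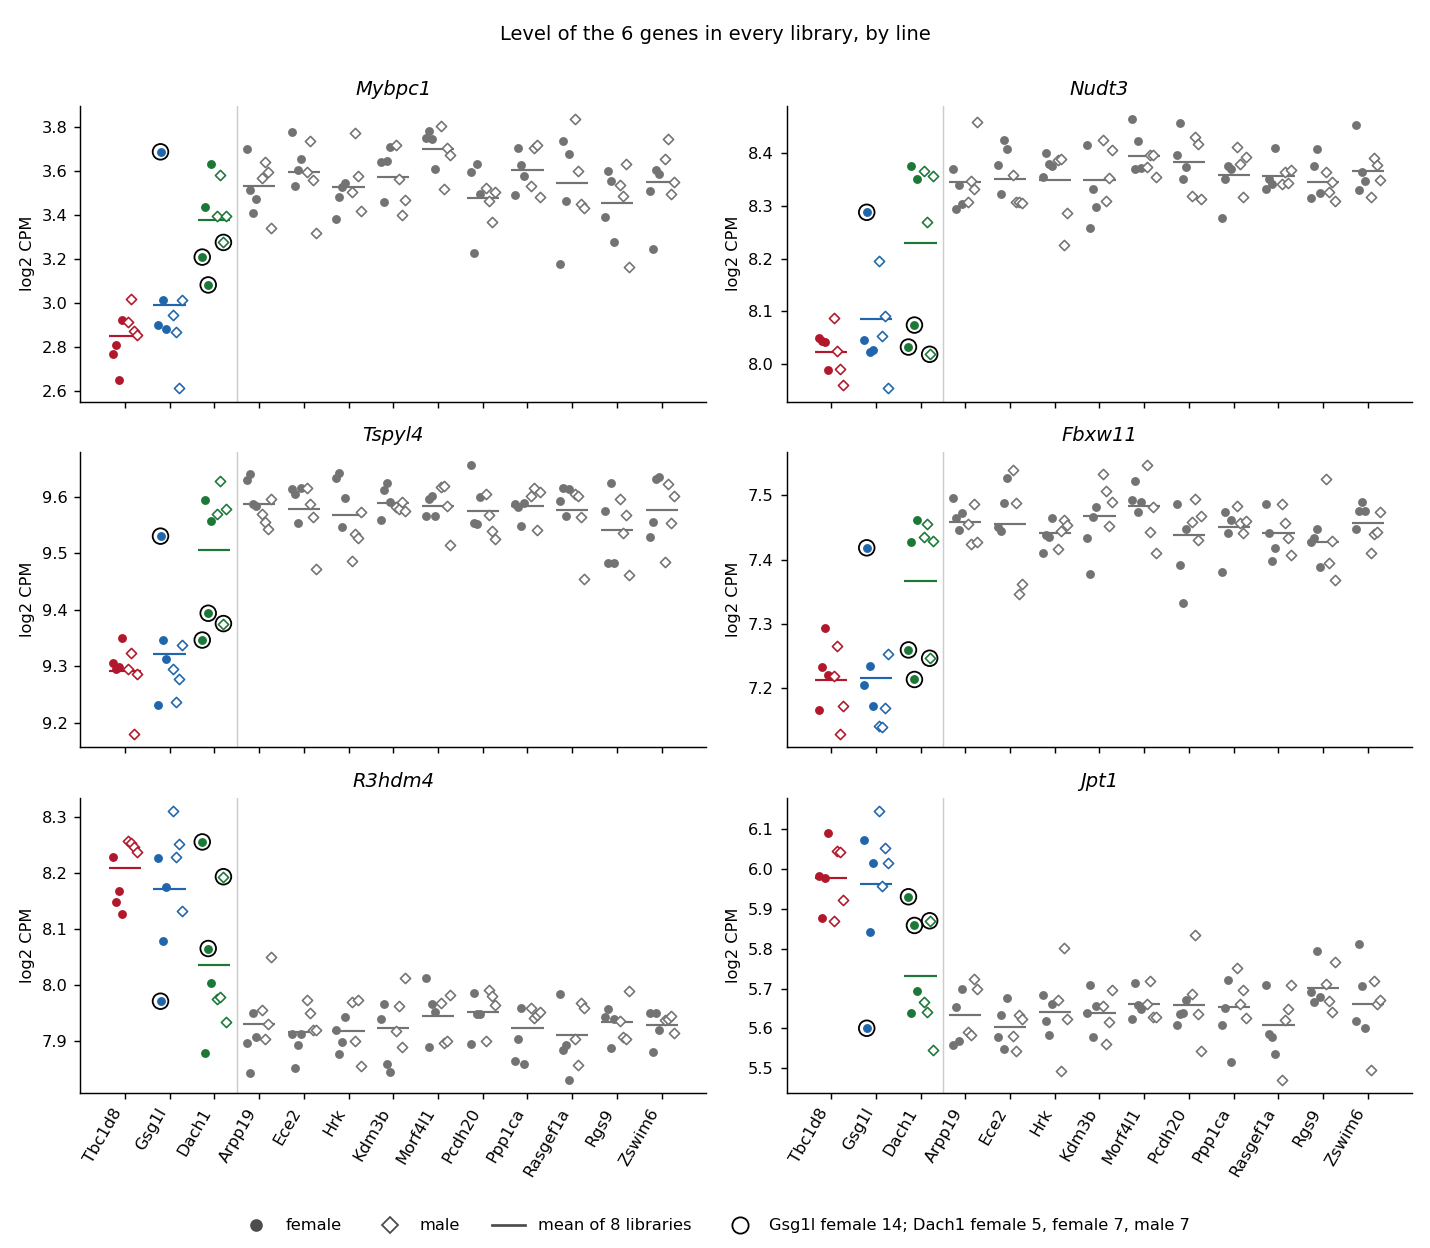
Level of each gene (log2 CPM, y axis) in every library by line (x axis), with females as filled circles, males as open diamonds and a bar at the mean of each line's 8 libraries. Ringed are Gsg1l female 14, which lies among the other lines, and Dach1 female 5, female 7 and male 7, which lie toward Tbc1d8 and Gsg1l in all 6 panels.

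Mybpc1, the muscle thick filament gene, had its lowest, median and highest values at 6.21, 7.20 and 8.02 CPM in the 8 Tbc1d8 libraries. In Gsg1l, female 14 had 12.8 CPM and the other 7 libraries had 6.05, 7.39 and 8.01 CPM as lowest, median and highest. In Dach1, female 5, female 7 and male 7 had 9.17, 8.40 and 9.61 CPM, female 6 and female 8 had 10.7 and 12.3 CPM, and male 5, male 6 and male 8 had 10.5, 11.9 and 10.5 CPM. The 80 libraries of the other 10 lines ranged from 8.90 to 14.2 CPM, with a median of 11.7 CPM, so the Tbc1d8 libraries lay below them all, while of the 3 Dach1 libraries only female 7 did. Relative to the mean of the other 12 lines, the log2 difference was -0.65 ± 0.06 (SE) in Tbc1d8, -0.47 ± 0.06 in Gsg1l and -0.07 ± 0.06 in Dach1. This was the greatest difference of the 6 genes and also the least precise. Among 5 skeletal muscle markers, Ckm had a median of 0 CPM over all libraries and Acta1 one of 10.7 CPM, near the level of Mybpc1. The 5 markers summed to between 10.7 and 13.5 CPM in Tbc1d8 and between 9.55 and 14.8 CPM in the other 10 lines. In Gsg1l their sum was 10.2 CPM in female 14 and between 10.2 and 15.1 CPM in the other 7 libraries. Their sum was between 12.5 and 13.2 CPM in Dach1 female 5, female 7 and male 7, and between 10.6 and 11.8 CPM in the other 5 Dach1 libraries, and its part in the Mybpc1 values was not tested.

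Nudt3, the diphosphoinositol hydrolase, had 249.1, 262 and 272 CPM as lowest, median and highest in Tbc1d8. Gsg1l female 14 had 313 CPM, and the other 7 Gsg1l libraries had 248, 264 and 293 CPM. The 80 libraries of the other 10 lines had 299, 329 and 353 CPM, so neither Tbc1d8 nor the 7 Gsg1l libraries reached them. In Dach1, female 5, female 7 and male 7 had 262, 269 and 259 CPM, all within the range of Tbc1d8, and the other 5 libraries had between 308 and 332 CPM. The log2 difference from the other 12 lines was -0.30 ± 0.03 in Tbc1d8, -0.23 ± 0.03 in Gsg1l and -0.07 ± 0.03 in Dach1.

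Tspyl4, of the TSPY-like family, had 580.2, 629 and 653 CPM as lowest, median and highest in Tbc1d8. Gsg1l female 14 had 739.6 CPM, and the other 7 Gsg1l libraries had 601, 629 and 651 CPM. The 80 libraries of the other 10 lines had 702, 768 and 807 CPM and overlapped with neither set. In Dach1, female 5, female 7 and male 7 had 651, 673 and 664 CPM, and the other 5 libraries had between 754 and 791 CPM. These 3 libraries lay between the ranges of Tbc1d8 and of the other 10 lines, with female 5 within that of Tbc1d8. The log2 difference from the other 12 lines was -0.26 ± 0.02 in Tbc1d8, -0.22 ± 0.02 in Gsg1l and -0.02 ± 0.02 in Dach1.

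Fbxw11, the substrate receptor of the SCF ligase, had 139.8, 149 and 157 CPM as lowest, median and highest in Tbc1d8. Gsg1l female 14 had 171 CPM, and the other 7 Gsg1l libraries had 141, 144 and 152 CPM. The 80 libraries of the other 10 lines had 161, 175 and 187 CPM, above every Tbc1d8 library. In Dach1, female 5, female 7 and male 7 had 153, 148 and 152 CPM, all within the Tbc1d8 range, and the other 5 libraries had between 172 and 176 CPM. The log2 difference was -0.21 ± 0.02 in Tbc1d8, -0.21 ± 0.02 in Gsg1l and -0.04 ± 0.02 in Dach1.

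R3hdm4, the R3H domain gene, went the other way, with 279, 301 and 306 CPM as lowest, median and highest in Tbc1d8. Gsg1l female 14 had 251 CPM, and the other 7 Gsg1l libraries had 270.3, 299 and 317 CPM. The 80 libraries of the other 10 lines had 227, 245 and 265 CPM, all below the 7 Gsg1l and the 8 Tbc1d8 libraries. In Dach1, female 5, female 7 and male 7 had 306, 268 and 293 CPM, and the other 5 libraries had between 235 and 257 CPM. The log2 difference was 0.25 ± 0.02 in Tbc1d8, 0.21 ± 0.02 in Gsg1l and 0.07 ± 0.02 in Dach1.

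Jpt1, the Jupiter homolog, had 58.4, 63.0 and 68.1 CPM as lowest, median and highest in Tbc1d8. Gsg1l female 14 had 48.4 CPM, and the other 7 Gsg1l libraries had 57.3, 64.6 and 70.7 CPM. The 80 libraries of the other 10 lines had 44.3, 50.1 and 57.0 CPM, so the highest of them came close to the lowest of the 7 Gsg1l libraries. In Dach1, female 5, female 7 and male 7 had 60.9, 57.9 and 58.4 CPM, and the other 5 libraries had between 46.6 and 51.7 CPM. The log2 difference was 0.30 ± 0.03 in Tbc1d8, 0.29 ± 0.03 in Gsg1l and 0.03 ± 0.03 in Dach1.

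**Figure D2:**
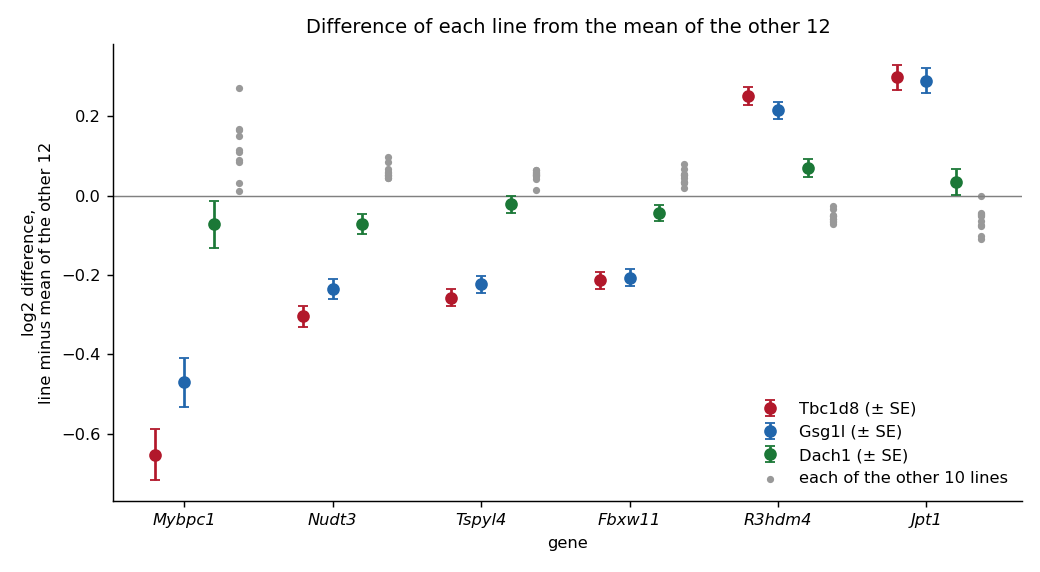
Log2 difference of each line from the mean of the other 12 (y axis) for the 6 genes (x axis), with SE for Tbc1d8, Gsg1l and Dach1 and points for each of the other 10 lines. Tbc1d8 and Gsg1l sit on the same side of 0 in each gene, from -0.65 for Mybpc1 in Tbc1d8 to 0.30 for Jpt1 in Tbc1d8, and Dach1 lies between them and the other lines.

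Over all genes, the median log2 difference was 0.00 in Tbc1d8, 0.01 in Gsg1l and 0.00 in Dach1, with a median size of 0.05 in Tbc1d8, 0.05 in Gsg1l and 0.03 in Dach1. Of the 15723 genes, edgeR's quasi-likelihood test (Benjamini-Hochberg adjustment) called 12.4% in Tbc1d8 and 10.4% in Gsg1l at an adjusted p under 0.05, and 5.57% in both lines in the same direction. In Dach1 it called 0.165%, with 0.0636% higher and 0.102% lower. Since the 6 genes were chosen on these contrasts, nothing is read from their place against these shares.

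Tbc1d8 stood at the low end of the 13 line means for Mybpc1, Nudt3, Tspyl4 and Fbxw11 and at the high end for R3hdm4 and Jpt1, with Gsg1l next to it and Dach1 after Gsg1l in all 6 genes. The means of Tbc1d8 and Gsg1l differed by less than the SD of the Gsg1l libraries in every one of them. Mybpc1 averaged 7.16 ± 0.55 CPM in Tbc1d8 and 8.05 ± 2.02 CPM in Gsg1l (SD, n = 8 each), and Jpt1 averaged 63.0 ± 3.56 CPM in Tbc1d8 and 62.6 ± 6.94 CPM in Gsg1l. The fitted log2 difference of Tbc1d8 from Gsg1l was -0.17 ± 0.08 for Mybpc1 and -0.06 ± 0.03 for Nudt3, and between -0.03 and 0.03 for the other 4 genes. Without Gsg1l female 14, the difference of Gsg1l from the other 12 lines was -0.60 for Mybpc1, -0.27 for Nudt3, -0.26 for Tspyl4, -0.24 for Fbxw11, 0.24 for R3hdm4 and 0.33 for Jpt1. The mean of Dach1 differed from that of the next line by less than the SD of the Dach1 libraries in all 6 genes. Among the other 10 lines the means stayed close, from 10.95 CPM (Rgs9) to 12.9 CPM (Morf4l1) for Mybpc1, from 325 CPM (Arpp19) to 337 CPM (Morf4l1) for Nudt3, and from 241 CPM (Rasgef1a) to 248 CPM (Pcdh20) for R3hdm4.

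The 3 Dach1 libraries ranked together in each gene. Female 5, female 7 and male 7 were the 3 lowest of the 8 Dach1 libraries for Mybpc1, Nudt3, Tspyl4 and Fbxw11 and the 3 highest for R3hdm4 and Jpt1, and they did not overlap with the other 5 in any of the 6. Over all genes, 6.97% had these 3 libraries all below or all above the other 5 (3.52% below and 3.45% above). The 3 libraries were noticed in the values of these genes, so this share is given as a description. The spread within the line was wide: the SD of log2 CPM in Dach1 was 0.16 for Nudt3, 0.11 for Tspyl4, 0.11 for Fbxw11, 0.13 for R3hdm4 and 0.14 for Jpt1, against at most 0.06, 0.06, 0.07, 0.06 and 0.09 in any of the other 10 lines. Mybpc1 was the exception, with 0.18 in Dach1 and up to 0.21 among the other 10 lines. Without the 3 libraries the difference of Dach1 from the other 12 lines changed sign in all 6 genes, to 0.04 for Mybpc1, 0.04 for Nudt3, 0.06 for Tspyl4, 0.03 for Fbxw11, -0.02 for R3hdm4 and -0.06 for Jpt1.

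**Figure D3:**
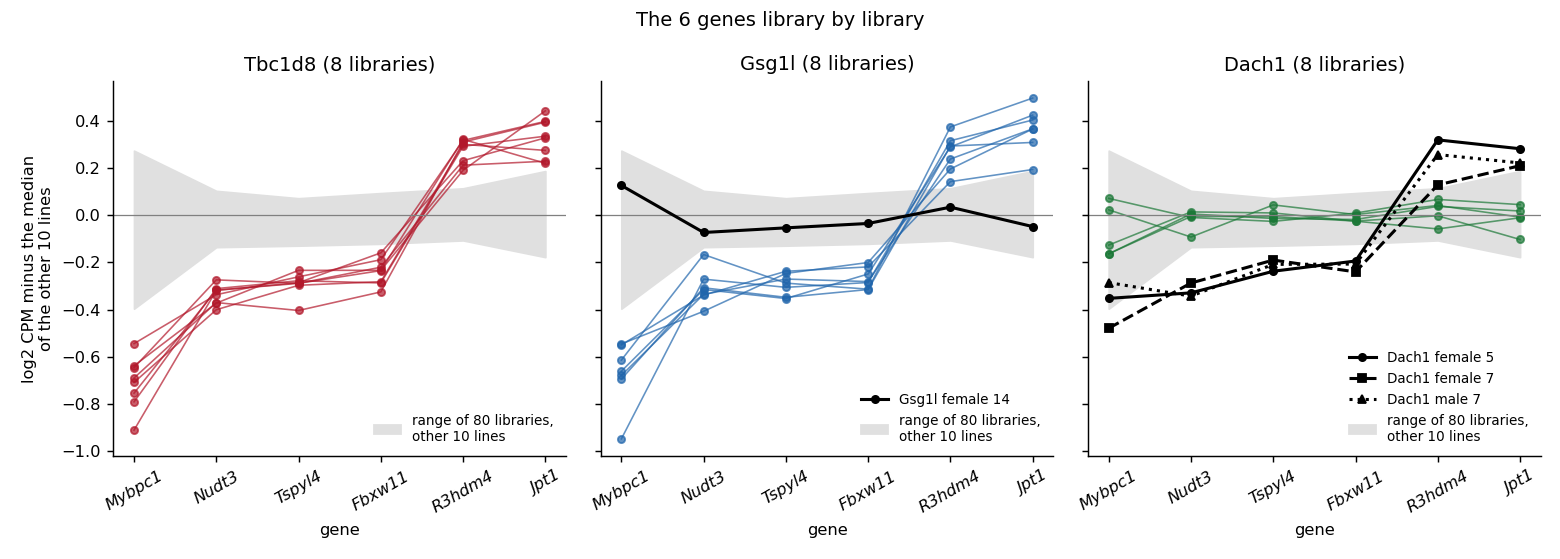
Deviation of each library's log2 CPM from the median of the 80 libraries of the other 10 lines (y axis) across the 6 genes (x axis), with a line per library in Tbc1d8, Gsg1l and Dach1 and the range of the 80 libraries in grey. Gsg1l female 14 stays within the grey range, and Dach1 female 5, female 7 and male 7 leave it in 5 of the 6 genes, Mybpc1 being outside it in female 7 only.

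Female 5 and male 7 of Dach1 were on plate 2 and female 7 on plate 1, and the other 5 libraries were all on plate 1. The part of the plate in these values was not tested. Totals were between 25.4 and 28.5 M reads in the 3 libraries and between 24.5 and 29.6 M reads over the whole line. Nnt and Gabra2, which also stood apart in Tbc1d8 and Gsg1l, did not part the same way: Nnt had 19.4 to 22.3 CPM in the 3 Dach1 libraries and 19.3 to 22.6 CPM in the other 5, and Gabra2 33.5 to 54.7 CPM in the 3 and 32.9 to 49.1 CPM in the other 5. Atf4, a transcription factor of the amino acid response, did, with 108 to 114 CPM in the 3 libraries and 144 to 168 CPM in the other 5. The median of Nnt was 22.2 CPM in the 3 and 21.5 CPM in the other 5, near the 21.8 CPM of the other 10 lines. That of Gabra2 was 49.4 CPM in the 3 and 37.9 CPM in the other 5, both above the 30.6 CPM of the other 10 lines. Summed markers of oligodendrocytes ran from 1637 to 2180 CPM in the 3 libraries and from 1865 to 2343 CPM in the other 5, and those of astrocytes from 916 to 1017 CPM in the 3 and from 973 to 1100 CPM in the other 5, so the sets overlapped in both. They also overlapped in every other marker list except skeletal muscle, with 12.5 to 13.2 CPM in the 3 and 10.6 to 11.8 CPM in the other 5.

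Gsg1l female 14 lay outside the range of the other 7 Gsg1l libraries in all 6 genes, as it did in 36.4% of all 15723 genes (17.9% below and 18.5% above). It also had 23.4 CPM of Nnt and 26.003 CPM of Gabra2, against 30.7 to 35.3 CPM and 45.5 to 58.3 CPM in the other 7. Its oligodendrocyte markers summed to 2206 CPM, against 1568 to 1908 CPM in the other 7, and its excitatory neuron markers to 2027 CPM, against 2169 to 2287 CPM. Striatal neuron markers (197 CPM against 206 to 238 CPM) and the scarce blood markers (1.66 CPM against 0.315 to 1.51 CPM) lay outside too. Its sums for interneurons, VIP interneurons, astrocytes, microglia, endothelium, skeletal muscle and choroid plexus lay within the range of the other 7. The part of these markers in the values of the 6 genes was not tested.

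Within the Tbc1d8 line, no relation between the 6 genes was detectable with 8 libraries. Pearson's r over the 15 pairs ran from -0.49 to 0.61, and Spearman's rho from -0.52 to 0.55. None passed an exact two-sided permutation test with Benjamini-Hochberg adjustment over 45 pairs in 3 lines, and none had an unadjusted p under 0.05. The pair with the highest r was Tspyl4 and Fbxw11 (exact permutation p = 0.0945, adjusted p = 0.170, or 0.258 adjusted over the 30 pairs of Tbc1d8 and Gsg1l). Leaving out the 2 libraries farthest from the median moved the range of r to between -0.77 and 0.81. Among the 7 Gsg1l libraries other than female 14, r ran from -0.81 to 0.83, and no pair passed by Pearson's r, with 4 of 15 at an unadjusted p under 0.05. The highest rank correlation among them was between Nudt3 and R3hdm4, with a Spearman's rho of 0.96 beside a Pearson's r of 0.82 (exact permutation p = 0.00278 and 0.0208). Adjusted over the 45 pairs rho had a p of 0.0417, but that rests on Dach1 pairs. Over the 30 pairs of Tbc1d8 and Gsg1l, an adjustment added after seeing the data, it had an adjusted p of 0.0833, and no pair passed by r or by rho. Over all 8 Gsg1l libraries, 6 of 15 pairs passed by Pearson's r when adjusted over 45 pairs and 2 when adjusted over 30, with 0 by Spearman's rho in both. Without female 14, among 7 libraries, none passed by Pearson's r, though fewer libraries also make a call harder. The 2 pairs that passed over 30 then had r = 0.83 (R3hdm4 and Jpt1, from 0.93) and -0.81 (Fbxw11 and R3hdm4, from -0.91). In the other pairs that passed over 45, r then ran from -0.64 to 0.57, weaker than before. The part of female 14 in these calls was not tested apart from the number of libraries. In Dach1 the libraries fell into sets of 3 and 5, so no coefficient over the 8 is given, and neither set is large enough for one.

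In the 80 libraries of the other 10 lines, some of the same pairs varied together once the mean of each line and sex was taken out, and with it the line differences that chose the genes. Of 15 pairs, 4 passed a two-sided permutation test within line and sex with 100000 draws at an adjusted p under 0.05. Tspyl4 and Fbxw11 were the closest, with r = 0.50 (adjusted p = 0.00165) and rho = 0.43 (adjusted p = 0.00810), and r = 0.46 without the 2 libraries farthest from the median. Mybpc1 was higher where Fbxw11 was (r = 0.36, adjusted p = 0.0357, rho = 0.41, adjusted p = 0.0127, and r = 0.41 without 2 libraries). Mybpc1 was lower where Jpt1 was higher (r = -0.39, adjusted p = 0.0120, rho = -0.37, adjusted p = 0.0157, and r = -0.34 without 2 libraries). Tspyl4 was lower where R3hdm4 was higher (r = -0.33, adjusted p = 0.0133, rho = -0.33, adjusted p = 0.0162, and r = -0.34 without 2 libraries). Mybpc1 and Fbxw11 no longer passed under any of the 4 alternatives tried, with r from 0.28 to 0.34 and adjusted p from 0.0579 to 0.148, and Tspyl4 and R3hdm4 did not pass on FPKM (r = -0.27, adjusted p = 0.0512). The signs of these 4 pairs match the directions of the genes in Tbc1d8 and Gsg1l, and over all 15 pairs the 7 pairs of like direction had an r above 0 and 5 of the 8 pairs of unlike direction an r below 0. Nudt3 took part in none of the 4 pairs, and its r with the other 5 genes ran from -0.05 to 0.21.

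These r were set beside those of all genes. An r with Tspyl4 as far from 0 as that of Fbxw11 was reached by 3.14% of the 15717 other tested genes, and with Fbxw11 as far as that of Tspyl4 by 0.554%. For Mybpc1 and Fbxw11 the shares were 7.66% and 5.55%, for Mybpc1 and Jpt1 5.68% and 9.23%, and for Tspyl4 and R3hdm4 16.5% and 8.93%.

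**Figure D4:**
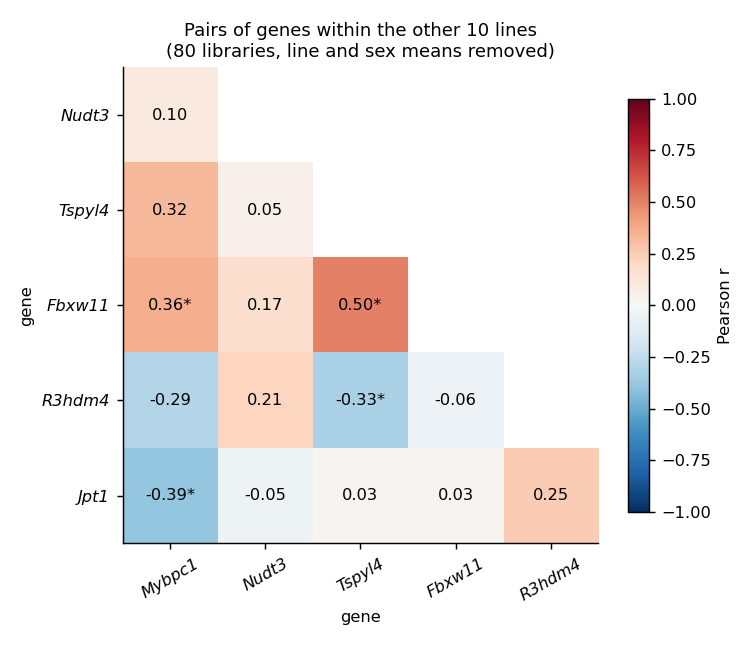
Pearson's r (colour and number) between each pair of the 6 genes over the 80 libraries of the other 10 lines, after the mean of each line and sex was removed. A star marks the 4 pairs with an adjusted permutation p under 0.05, of which Tspyl4 and Fbxw11 has the highest r at 0.50.

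Over all libraries, Pearson's r of log2 CPM is given as a description, since lines that stand apart raise every such r. Among the 6 genes themselves it ran from 0.80 to 0.91 between Mybpc1, Nudt3, Tspyl4 and Fbxw11, was 0.85 between R3hdm4 and Jpt1, and ran from -0.90 to -0.79 between the 4 and these 2. Of the genes outside the 6, those most like Mybpc1 were Nars (r = 0.83), which encodes an asparaginyl-tRNA synthetase, Mfn2 (r = 0.83), a mitochondrial fusion gene, and Adar (r = 0.82), an RNA-editing deaminase. Those most like Nudt3 were Atf4 (r = 0.88), Asns (r = 0.86), which encodes asparagine synthetase, and Yars (r = 0.85), which encodes a tyrosyl-tRNA synthetase. Outside the 6, Tspyl4 was most like Asns (r = 0.94), Nars (r = 0.93) and Mfn2 (r = 0.91), and Fbxw11 was most like the same 3 genes (Mfn2 r = 0.88, Nars r = 0.87 and Asns r = 0.87). Outside the 6, R3hdm4 was most like Evl (r = 0.86), a regulator of actin, Zmat2 (r = 0.81) and Rab2a (r = 0.80), a small GTPase of vesicle traffic. Among the same genes, Jpt1 was most like Rab2a (r = 0.80), Zmat2 (r = 0.80) and Tsr2 (r = 0.80). Within the other 10 lines, with line and sex means removed, the r of each gene with its 3 varied. It ran from 0.02 (Adar) to 0.45 (Nars) for Mybpc1 and from 0.03 (Asns) to 0.47 (Atf4) for Nudt3. For Tspyl4 it ran from 0.58 (Mfn2) to 0.66 (Nars), and for Fbxw11 from 0.34 (Asns) to 0.54 (Nars). For R3hdm4 it ran from -0.15 (Rab2a) to 0.33 (Evl), and for Jpt1 from 0.19 (Rab2a) to 0.43 (Zmat2).

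Sex took no part in choosing the genes. None of the 6 was called between females and males by edgeR's quasi-likelihood test (Benjamini-Hochberg adjustment) over all genes, where 8.57% of 15723 genes were called, none with the replicate number as a block (8.64% of all genes called) and none by DESeq2, while 2 of the 6 had an unadjusted p under 0.05. R3hdm4 averaged 249.6 ± 19.3 CPM in 52 females and 255 ± 22.4 CPM in 52 males (SD), and the mean of the females was lower in 11 of 13 lines. Its log2 difference, female minus male, was -0.03 (95% interval -0.06 to -0.01, adjusted p = 0.0753). Tspyl4 averaged 747 ± 53.6 CPM in females and 735 ± 55.4 CPM in males, higher in females in 10 of 13 lines, with a log2 difference of 0.02 (95% interval 0.00 to 0.05, adjusted p = 0.213). For Mybpc1, Nudt3, Fbxw11 and Jpt1 the difference was between -0.01 and 0.01, with adjusted p from 0.801 to 0.959, and the widest interval, that of Mybpc1, ran from -0.06 to 0.07. On plate 1 alone, R3hdm4 was called, with a difference of -0.03 (adjusted p = 0.0340). The median size of the sex difference over all genes was 0.03.

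**Figure D5:**
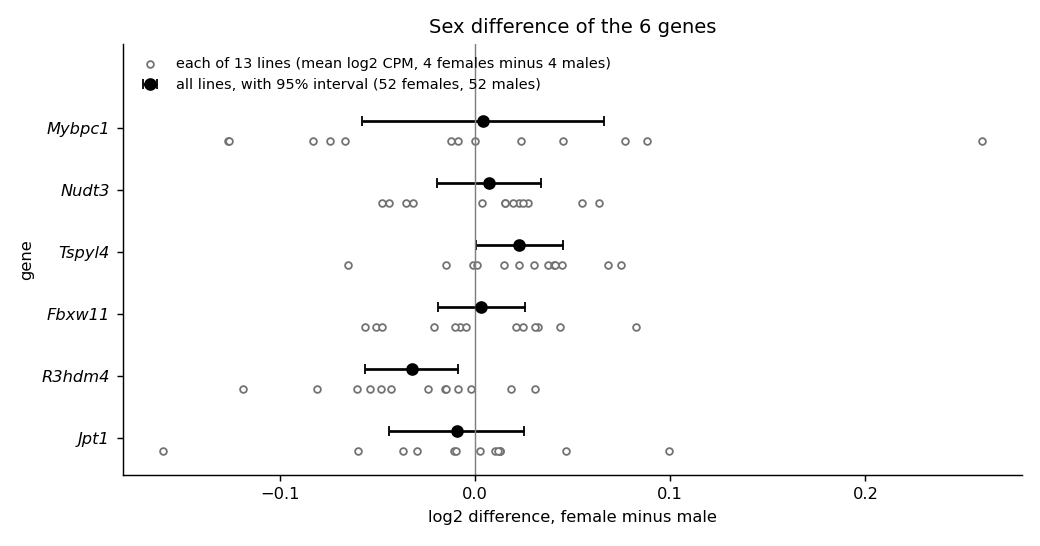
Log2 difference, female minus male (x axis), of the 6 genes (y axis), as the fitted value with its 95% interval over 52 females and 52 males and as open points for each of the 13 lines. The fitted values lie between -0.03 for R3hdm4 and 0.02 for Tspyl4, and the point farthest from 0 is Mybpc1 in Gsg1l at 0.26.

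That point includes Gsg1l female 14: Mybpc1 averaged 8.87 ± 2.64 CPM in the 4 Gsg1l females and 7.23 ± 0.85 CPM in the 4 Gsg1l males. The difference between the sexes was not found to vary between lines in any of the 6 genes (edgeR's quasi-likelihood F-test, adjusted p = 1.00 for each, unadjusted p from 0.449 to 0.903), where 0.0382% of all genes were called.

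Between the plates, R3hdm4 was the 1 gene of the 6 called, in a comparison that called 0.242% of all genes. It averaged 283 ± 23.8 CPM in the 8 libraries on plate 2 and 250.01 ± 18.8 CPM in the 96 on plate 1 (SD), with a log2 difference of 0.10 ± 0.02 (edgeR's quasi-likelihood test with line and sex as terms, adjusted p = 0.0107). Plate 2 held 2 libraries of Tbc1d8, 2 of Dach1 and 1 each of Gsg1l, Arpp19, Morf4l1 and Rgs9. Without the Dach1 line, an alternative chosen after seeing the data, the difference was 0.06 and was no longer called (adjusted p = 0.327). Tspyl4 differed by -0.07 ± 0.02 (adjusted p = 0.0956) and Fbxw11 by -0.06 ± 0.02 (adjusted p = 0.155), and the other 3 genes had adjusted p from 0.509 to 0.563.

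Relatives and partners of the 6 genes, in lists that hold none of the 6 and were chosen with earlier results of these data known, were tested between lines. Of 54 listed genes 53 were tested. In Tbc1d8, 3 were called higher and 10 lower, or 24.5% of the 53, against 12.4% of all genes (5.66% higher and 6.79% lower). In Gsg1l, 3 were called higher and 6 lower, or 16.98%, against 10.4% of all genes (4.86% higher and 5.58% lower). The median log2 difference over the 53 was 0.00 in both lines, as over all genes in Tbc1d8, where it was 0.00, and against 0.01 over all genes in Gsg1l. In Dach1 none was called by edgeR's quasi-likelihood test, where 3 of the 53 had an unadjusted p under 0.05, against 7.87% of all genes.

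Among the TSPY and nucleosome assembly genes, 5 of 10 fell in Tbc1d8 and none rose, and 4 fell and 1 rose in Gsg1l. Nap1l2, a neuronal nucleosome assembly protein gene, fell most in Tbc1d8 (-0.23 ± 0.03, adjusted p = 2.07e-08) and fell in Gsg1l (-0.16 ± 0.03, adjusted p = 0.000135). Tspyl5 fell by 0.09 in Tbc1d8 (adjusted p = 0.0457) and by 0.16 in Gsg1l (adjusted p = 0.000184), and Tspyl1 fell in both lines as well. Tspyl2 (-0.08, adjusted p = 0.0461) and Nap1l3 (-0.09, adjusted p = 0.0260) fell in Tbc1d8, Set (-0.07, adjusted p = 0.0359) fell in Gsg1l and Nap1l4 (0.06, adjusted p = 0.0187) rose there. The other line had adjusted p of 0.882 for Tspyl2, 0.0515 for Nap1l3, 0.0594 for Set and 0.229 for Nap1l4, and the difference between the lines was not tested. Tspyl3, a further relative of Tspyl4, was at -0.06 in Tbc1d8 and 0.01 in Gsg1l (adjusted p = 0.348 and 0.912).

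Of 12 genes of the SCF ligase and its F-box relatives, 1 rose and 3 fell in Tbc1d8, and 1 rose and 1 fell in Gsg1l. Btrc, which encodes beta-TrCP1, the close paralog of Fbxw11, fell in Tbc1d8 (-0.19 ± 0.02, adjusted p = 3.16e-10) and in Gsg1l (-0.18 ± 0.02, adjusted p = 1.13e-08), close to the -0.21 of Fbxw11 in each. Nedd8, the modifier that activates cullins, rose in Tbc1d8 (0.14 ± 0.03, adjusted p = 4.60e-05) and in Gsg1l (0.14 ± 0.03, adjusted p = 3.19e-05). Cul1, the cullin scaffold (-0.06, adjusted p = 0.0370), and Fbxw2 (-0.06, adjusted p = 0.0320) fell in Tbc1d8, with adjusted p of 0.824 and 0.989 in Gsg1l. The adaptor Skp1 was at -0.02 in Tbc1d8 and 0.01 in Gsg1l, and the RING subunit Rbx1 at 0.00 and 0.01.

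Of 11 genes for known substrates of beta-TrCP, 1 rose and 1 fell in Tbc1d8 and 1 fell in Gsg1l. Atf4, whose RNA was already known to stand apart in these lines, fell by 0.44 in Tbc1d8 (SE 0.04, adjusted p = 2.51e-13) and by 0.33 in Gsg1l (SE 0.04, adjusted p = 2.10e-08). Its 8 Tbc1d8 libraries had between 102 and 119.7 CPM, Gsg1l female 14 had 136 CPM and the other 7 Gsg1l libraries between 106 and 127 CPM, against 125 to 187 CPM in the other 10 lines. Nfkbia, the inhibitor of NF-kappaB, rose in Tbc1d8 (0.25 ± 0.07, adjusted p = 0.00703) and was at 0.09 ± 0.07 in Gsg1l (adjusted p = 0.475). Ctnnb1, which encodes beta-catenin, was at 0.04 in Tbc1d8 and -0.01 in Gsg1l (adjusted p = 0.0815 and 0.675).

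Of 11 inositol pyrophosphate enzyme genes, 1 fell in Tbc1d8, where 12.4% of all genes were called, and none was called in Gsg1l (10.4%). The 1 was Nudt4, the closest listed relative of Nudt3, with -0.08 ± 0.02 in Tbc1d8 (adjusted p = 0.0103) and -0.07 ± 0.02 in Gsg1l (adjusted p = 0.0550). Of the kinases that make the substrates of Nudt3, Ip6k1 was at 0.00 in Tbc1d8 and 0.01 in Gsg1l, and Ppip5k1 at 0.05 and 0.02. Of 5 R3H domain genes, Arpp21, a neuronal RNA-binding protein gene, rose in Tbc1d8 (0.15 ± 0.03, adjusted p = 0.000169) and in Gsg1l (0.14 ± 0.03, adjusted p = 0.000862), and the other 4 were not called. Jpt2, the relative of Jpt1, was at 0.00 ± 0.08 in Tbc1d8 and 0.02 ± 0.08 in Gsg1l. The relatives of Mybpc1 were nearly silent, with mean levels of 1.41 CPM for Mybpc3, 0.237 CPM for Mybph and 0.187 CPM for Mybpc2, and none of the 3 tested was called in either line.

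Between the sexes, 5 of the 53 were lower in females and none higher, against 4.50% of all genes lower and 4.07% higher in females. They were Ip6k1 (-0.03, adjusted p = 0.0196), Tspyl2 (-0.05, adjusted p = 0.0134), Nap1l1 (-0.05, adjusted p = 0.00805), Nap1l5 (-0.04, adjusted p = 0.0150) and Nfkbib (-0.06, adjusted p = 0.0192). Dach1 female 5, female 7 and male 7 lay all below or all above the other 5 Dach1 libraries in 9 of the 53 genes. That was 16.98%, against 6.97% of all genes, and Btrc, Atf4, Nap1l2, Nap1l3 and Tspyl5 were among the 9. These Dach1 libraries were noticed in the values of the very genes whose relatives and partners are listed. The lists were also chosen with earlier results known, so nothing is read from these shares.

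Within 1 Mb of the 6 genes lay 212 tested genes, of which 10.4% were called in Tbc1d8 and 9.91% in Gsg1l, against 12.4% and 10.4% of all genes. Of the 212, Tbc1d8 had 15 higher and 7 lower, where 5.66% of all genes were higher and 6.79% lower. Gsg1l had 17 higher and 4 lower, where 4.86% of all genes were higher and 5.58% lower. Near R3hdm4, which was itself higher, Tbc1d8 had 8 of 79 higher and 1 lower, and Gsg1l had 11 higher and 0 lower. Near Nudt3, 2 of 36 were higher and 2 lower in each line. Nearest to Tspyl4 among the called was Tspyl1, at 12.5 kb (-0.09 ± 0.02 in Tbc1d8, adjusted p = 0.000175, and -0.08 ± 0.02 in Gsg1l, adjusted p = 0.000902). Snrpc, a spliceosomal protein gene 217 kb from Nudt3, fell in Tbc1d8 (-0.35 ± 0.05, adjusted p = 8.00e-08) and in Gsg1l (-0.26 ± 0.05, adjusted p = 9.28e-05), while Uqcc2, 445 kb from Nudt3, rose in Tbc1d8 (0.13, adjusted p = 0.00436) and in Gsg1l (0.12, adjusted p = 0.0163). Palm, 89.1 kb from R3hdm4, rose in Tbc1d8 (0.13 ± 0.02, adjusted p = 5.74e-05) and in Gsg1l (0.14 ± 0.02, adjusted p = 1.08e-05). Kcnip1, 883 kb from Fbxw11, fell in Tbc1d8 (-0.19 ± 0.03, adjusted p = 1.29e-05) and was at -0.08 ± 0.03 in Gsg1l (adjusted p = 0.0985). At R3hdm4, Rps15, a ribosomal protein gene (0.16 in Tbc1d8 and 0.13 in Gsg1l), and C2cd4c (0.21 and 0.17) rose with it in both lines, and at Jpt1 so did Nt5c, 5.28 kb away (0.12 and 0.14). None of the 15 tested neighbours of Mybpc1 was called in either line. By RefSeq on GRCm38.p6, Mybpc1 lies at chr10:88518279-88605229, Tspyl4 at chr10:34297421-34301320, R3hdm4 at chr10:79910052-79916930, Fbxw11 at chr11:32642555-32746816, Jpt1 at chr11:115497345-115514393 and Nudt3 at chr17:27579382-27623452, so all 6 stand more than 1 Mb apart.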

How the data were processed

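RNA from cerebral cortex of wild type mice was sequenced as stranded Illumina TruSeq libraries, per the labels' protocols, with 104 libraries from separate mice in 13 lines. Reads were handled with STAR 2.7.3a and HTSeq 0.10.0 on GRCm38 (mm10), per the submitters' processing notes, and the strand setting and filters are not given in the sources used here. The authors deposited whole-number read counts per RefSeq and Ensembl gene, not normalized, and FPKM values per gene. Jpt1 is listed there as Hn1. The Ensembl table, an alternative only, was used for 19563 rows, with 1 incomplete line left out.

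From the RefSeq counts, edgeR 4.0.16 (limma 3.58.1, R 4.3.3) with TMM scaling and its filter by line and sex tested 15723 of 24060 genes by the quasi-likelihood test, with Benjamini-Hochberg adjustment over all of them and calls at an adjusted p under 0.05. Line and sex were terms, and each line was set against the mean of the other 12. P-values measure the spread between separate mice, each taken as independent within its line and sex. The deposited names of some libraries of a line share a further number, whose meaning was not known here and which was not a term. CPM and log2 CPM (prior count 2) came from the same scaling. Tests of the sex difference, its variation by line and the plate used no value that chose the 6 genes. Correlations within a line used exact permutations, and those in the other 10 lines used Python 3.11.15, numpy 2.4.6 and scipy 1.17.1 with 100000 draws. The correlation planned over the 8 Dach1 libraries is not given, since they fell into separate sets. The code was tested on simulated data.

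The 6 genes, the lists and the alternatives were chosen with earlier results of these data known. The genes named are the 6, the called genes of each family list with up to 4 others, the 3 genes outside the 6 with the highest r per gene, and up to 3 called neighbours per gene within 1 Mb by p in Tbc1d8. One result is not reported here. Alternatives were another scaling, no filter, DESeq2 1.42.0, Ensembl counts, FPKM, plate 1 alone, 1 sex alone, a replicate block and leaving out libraries or lines. Within a line a female and a male can share a number, and nothing in the labels says that a shared number marks a litter or a day.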

Additional observations from a re-analysis of the deposited data

Results flagged for a closer look

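In 78 groups of 8 libraries, 1 for each of the 6 genes in each of the 13 lines, the highest or lowest library was set against the others by the gap to its nearest neighbour over the whole range (Dixon's test at 95%). It stood apart in 9 groups, where chance alone gives about 1 in 20, or 3.9. The 6 genes were measured in the same libraries, so the groups are not independent and nothing is read from this count. Gsg1l female 14 was the highest of its line for Mybpc1 (log2 CPM of 3.69, next 3.02), for Tspyl4 (9.53, next 9.35) and for Fbxw11 (7.42, next 7.25). Tbc1d8 male 47, on plate 2, was the lowest of its line for Tspyl4, with 9.18 and the next at 9.29, farther from the other lines than the rest of Tbc1d8. Tspyl4 also had a low library in Ece2, male 12 with 9.47, and in Rasgef1a, male 40 with 9.46, which is 1 of the 3 libraries whose sex-linked transcripts went against the label. For Nudt3, Arpp19 male 4, on plate 2, was the highest of its line with 8.46, and Rasgef1a female 40 the highest of its line with 8.41. For Fbxw11, Ppp1ca female 33 was the lowest of its line with 7.38. The 3 Dach1 libraries were not picked up, since a test for a single far library cannot see 3 that stand together.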

How the results depend on the processing

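The line differences of all 6 genes in Tbc1d8 and Gsg1l kept their direction under every alternative run. Those of Dach1 did not: without female 5, female 7 and male 7 they were 0.0358 (Mybpc1), 0.0363 (Nudt3), 0.0578 (Tspyl4), 0.0306 (Fbxw11), -0.0204 (R3hdm4) and -0.0643 (Jpt1), on plate 1 alone 0.0215 for Tspyl4 and -0.0250 for Jpt1, and in males alone 0.0258 for Tspyl4 and -0.0242 for Jpt1. Sex differences near 0 changed sign, from 0.00422 for Mybpc1 and 0.00335 for Fbxw11 in all libraries. Without Gsg1l female 14 they were -0.0129 for Mybpc1 and -0.00146 for Fbxw11. Without Tbc1d8, Gsg1l and Dach1 they were -0.00447 for Mybpc1 and -0.00253 for Fbxw11. Without Kdm3b female 22 they kept their sign, at 0.00576 and 0.00548. On plate 1 alone, 1 of the 6 genes was called between the sexes, R3hdm4, against 0 in all libraries. Without the Dach1 line, 0 of the 6 were called between plates, and Nudt3 was at 0.0282. The genes called over the whole table fell to 1099 in Tbc1d8 on plate 1 alone, to 479 in Tbc1d8, 133 in Gsg1l and 12 in Dach1 in females alone, and to 681, 976 and 14 in males alone, against 1957, 1641 and 26, with fewer samples in each. In Gsg1l, 0 of 15 pairs passed by Pearson's r with sex means removed, without female 14, or without the 2 farthest libraries, and 2 passed when adjusted over the 30 pairs of Tbc1d8 and Gsg1l, against 6. Of 87 recomputed values that answer a comparison 74 stayed close to the reported one or on its side of the threshold, and of 394 others 372 did. Libraries of a female and a male with the same number did not deviate together from their group means (median r of 0.02 over 52 pairs, 8 of them over 0.1, and 33 libraries closest to their own number). With the number as a replicate block, 1359 genes were called between the sexes, against 1347, and R3hdm4 had an adjusted p of 0.0656; the block changed the call of none of the 6 genes. Line and batch cannot be told apart, depth limits Mybpc1 most, and a line of 8 libraries limits every within-line correlation.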
